A study of Mus musculus with 3 samples.

Results

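Interleukin-15 (IL-15), its private receptor chain IL-15Rα and the cytokines and receptor chains that share the common gamma chain were examined in RAW cells, a mouse macrophage line, that had been given LPS. The 10 genes were *Il15*, *Il7* and *Il2* for ligands, *Il2rg* for the common gamma chain, and *Il15ra*, *Il2ra*, *Il4ra*, *Il7r*, *Il21r* and *Il13ra1* for the other receptor chains. They were taken by name from the gene probes of the array, which gave 10 of 26840 genes with a symbol and 21 of 56605 gene probes. Data of 3 arrays were used, 1 for each condition. Macrophages received LPS alone (LPS), *L. rhamnosus* CRL1505 followed by LPS (CRL1505 + LPS), or *L. plantarum* CRL1506 followed by LPS (CRL1506 + LPS), so that LPS was common to all groups. The lactobacilli were present for 24 h at 50000000 cells/mL and LPS was given at 50 ng/mL. The length of the LPS stimulation was 12 h in the design text and 3 h in the sample descriptions. The model was 1 transformed cell line, and cells without LPS were not analysed here.

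The common gamma chain is a subunit of the receptors for IL-2, IL-4, IL-7, IL-9, IL-15 and IL-21, and patients or mice that lack it have severe combined immunodeficiency. It pairs with JAK3 and its partner chains pair with JAK1, and the activated kinases phosphorylate STAT5, STAT6 or STAT3 according to the cytokine. Macrophages and dendritic cells are known as a source of IL-15, which they hold on IL-15Rα at their own surface and present to NK cells and CD8+ T cells that carry IL-2Rβ and the common gamma chain. IL-4Rα can also pair with IL-13Rα1 in place of the common gamma chain, which gives macrophages a receptor for both IL-4 and IL-13.

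RNA was hybridised in 1 colour to 60-base probes, and the processed signal of a spot is its brightness after subtraction of background. Signals were compared within a probe between arrays, on the log2 scale after each array had been shifted by the 75th percentile of its gene spots. That percentile was a signal of 743.1, 517.0 and 697.9 on the LPS, CRL1505 + LPS and CRL1506 + LPS arrays, so equal signals correspond to a higher shifted value on the CRL1505 + LPS array. With 1 array per condition there was no replicate and no test could be made. Over probes that are spotted repeatedly, the SD of a log2 ratio had a median of 0.047, 0.043 and 0.047 for CRL1505 + LPS against LPS, CRL1506 + LPS against LPS and CRL1505 + LPS against CRL1506 + LPS, which covers the spots of a hybridisation and no variation between cultures. It was larger for dim probes, with medians of 0.27, 0.26 and 0.31 over the few repeated probes (5, 11 and 5) with a signal under 200. Between different probes of the same gene the median SD of the ratio was 0.23, 0.21 and 0.32. The other 2 arrays shared a slide that did not hold the CRL1505 + LPS array, so that an effect of CRL1505 and one of the slide or scan cannot be told apart. Both strains were set against the same LPS array. Macrophage markers were well above background on each array (6 of 6, with a summed signal of 509974, 328659 and 383515 in the order LPS, CRL1505 + LPS and CRL1506 + LPS), although *Csf1r* was 2.77-fold lower in CRL1505 + LPS than in LPS and *Adgre1* 4.83-fold higher. Markers of T cells were in part above background as well (4 of 6 on each array, summed signals of 4490, 5843 and 4988), while *Cd3g* and *Cd8a* were not. Of these sums *Lck* alone gave 2300, 4389 and 3093. Of the NK cell markers 2, 2 and 1 of 5 were well above background (125, 223 and 141), of the B cell markers 3, 2 and 3 of 5 (356, 119 and 270) and of the mast cell markers 0, 0 and 1 of 4 (54.2, 52.6 and 77.0). The part of these markers in the results was not tested.

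Some of the genes are measured at several places of the transcript, and for *Il15* and *Il15ra* the places did not give the same answer, so their probe sequences are shown first. The probes of *Il15* lie on chromosome 8, minus strand (mm9). The brightest, at chr8:84855613-84855672, lies beyond the stop codon in the direction of transcription, and its first 30 bases are given. The second, at chr8:84855813-84855872, has an open reading frame that closes at its last codon, a TGA in capitals. The third, at chr8:84862385-84862444, lies further towards the start of the gene and was designed on a different cDNA. Its first 30 bases are given.
Il15 brightest probe: gaaatcttggaaatgaagagaggaaaagag
Il15 stop codon probe: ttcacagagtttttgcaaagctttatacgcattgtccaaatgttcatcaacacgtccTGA
Il15 probe on the other cDNA: tctaaacatgtttcatgttgggcaggtcca
The probes of *Il15ra* lie on chromosome 2, plus strand. The brightest is at chr2:11655416-11655475, and the 2 dimmer ones carry reading frames without a stop and are given in full. The first of these spans chr2:11645753-11652254, that is 6502 bases of the genome with 60 bases of sequence, and so crosses an exon junction. The second is at chr2:11654809-11654868.
Il15ra junction probe: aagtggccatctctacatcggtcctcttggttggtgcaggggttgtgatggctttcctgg
Il15ra second dim probe: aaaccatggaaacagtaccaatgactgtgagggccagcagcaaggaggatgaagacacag

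**Figure D1:**
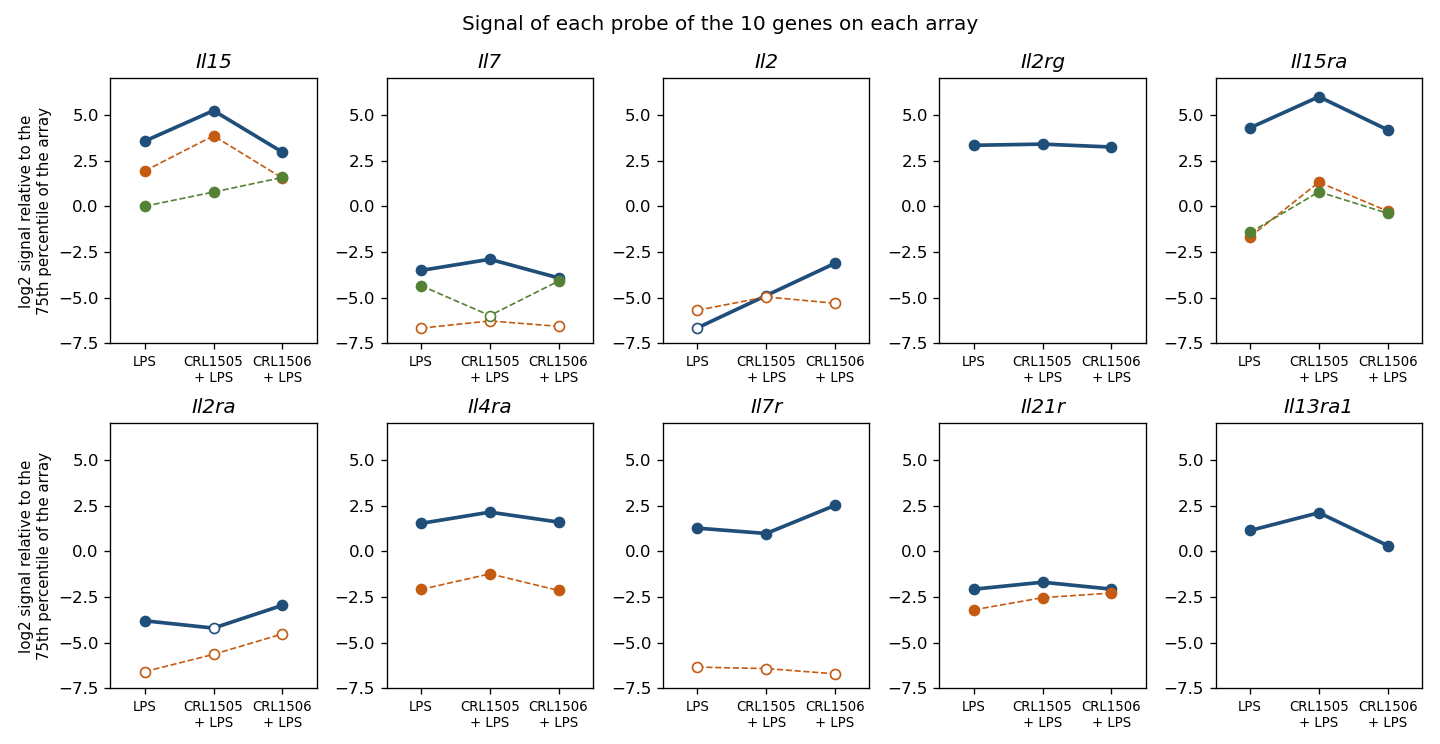
Log2 signal of each of the 21 probes relative to the 75th percentile of its array (y axis) on the LPS, CRL1505 + LPS and CRL1506 + LPS arrays (x axis). Filled points are well above background and open points are not. The thick line is the probe used for the gene, and dashed lines are its other probes. The probes used for *Il15*, *Il15ra* and *Il13ra1* peaked in CRL1505 + LPS, the one for *Il7r* in CRL1506 + LPS, and *Il2rg* lay between 3 and 4 on all.

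Of the 10 genes, 9 were well above background with LPS alone, 8 with CRL1505 and 10 with CRL1506, and 8 in all conditions. *Il2* did not reach this level with LPS alone, nor did *Il2* and *Il2ra* with CRL1505. Against LPS alone, 2 of the 9 genes compared were at least 2-fold higher in CRL1505 + LPS, namely *Il15* and *Il15ra*, and 0 were at least 2-fold lower. Among all 15603 genes compared, 9.93% were at least 2-fold higher, 8.41% at least 2-fold lower and 18.3% either. In CRL1506 + LPS, 2 of 10 genes were at least 2-fold higher than in LPS, namely *Il7r* and *Il2*, the latter as a bound only, and 0 were lower, where 5.67% of 16279 genes were higher, 3.53% lower and 9.2% either. The strains differed from each other in 7 of 10 genes. *Il15*, *Il15ra*, *Il13ra1* and *Il7* were higher in CRL1505 + LPS than in CRL1506 + LPS, and *Il7r*, *Il2* and *Il2ra* were lower, the last 2 as bounds. The dim genes were past 2-fold between the strains in few of the 7 other normalizations, *Il7* in 3, *Il2* in 2 and *Il2ra* in 2, whereas the other 4 genes were in all 7. Of 15780 genes compared between the strains, 9.02% were higher in CRL1505 + LPS, 7.47% lower and 16.5% either. The median of the log2 ratios was 0.61 for CRL1505 + LPS against LPS and -0.05 for CRL1506 + LPS against LPS, and over all genes compared it was 0.01 and -0.06. The median size of the ratio between the strains, regardless of direction, was 1.09 for the 10 genes and 0.42 for all genes. These shares and medians describe the 3 arrays, and with a handful of genes they say nothing about other cultures.

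On its brightest probe, *Il15* gave the widest gap between the strains among the 10 genes, but as a mean over its probes the gap was a log2 ratio of 1.26, smaller in size than those of *Il13ra1*, *Il7r* and *Il15ra*. Its brightest probe had a signal of 8827 in LPS, 19532 in CRL1505 + LPS and 5473 in CRL1506 + LPS. On this probe the gene was therefore highest with CRL1505 and lowest with CRL1506. After the shift it was 3.18-fold higher in CRL1505 + LPS than in LPS (log2 ratio 1.67, between 1.16 and 1.97 over 7 other normalizations) and 1.51-fold lower in CRL1506 + LPS (-0.60, between -0.80 and -0.49). The strains were 4.82-fold apart. The probe that ends in the stop codon repeated this order, with signals of 2844, 7509 and 2045 for LPS, CRL1505 + LPS and CRL1506 + LPS. Its ratios to LPS were 3.80-fold higher with CRL1505 (1.92) and 1.31-fold lower with CRL1506 (-0.39). The third probe did not follow this order. Its signal was 747 in LPS, 889 in CRL1505 + LPS and 2085 in CRL1506 + LPS, which made it 1.71-fold higher with CRL1505 and 2.97-fold higher with CRL1506 than with LPS alone (0.77 and 1.57). Relative to the brightest probe, its log2 ratio to LPS was higher by 2.17 in CRL1506 + LPS and differed by -0.90 in CRL1505 + LPS, and such gaps between probes of the same arrays do not depend on how an array is shifted. The spread of the 3 probes (SD of the log2 ratio) was 0.60 with CRL1505 and 1.20 with CRL1506. The 90th percentile of this spread over all genes with several probes was 0.64 and 0.79, so that the probes of *Il15* diverged more than most in CRL1506 + LPS. The third probe lay in an uneven area. Of its 20 nearest spots 5 were uneven on the LPS array and 6 on the array of CRL1506 + LPS, that is with a mean pixel signal above the median by more than 0.2 on the log2 scale. Only 3.18% and 1.89% of gene spots on these arrays had 5 or more such neighbours. The part of the uneven area in this ratio was not tested.

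*Il15ra*, the chain that holds IL-15 at the cell surface, was also highest with CRL1505. The signal of its brightest probe was 14617 in LPS, 33012 in CRL1505 + LPS and 12701 in CRL1506 + LPS. This gave a 3.25-fold higher value in CRL1505 + LPS than in LPS (log2 ratio 1.70, between 1.19 and 1.99 over the other normalizations), whereas CRL1506 + LPS was 1.08-fold lower (-0.11, between -0.31 and 0.01), of which the sign changed with the normalization. Ligand and receptor chain were thus higher together with CRL1505, by similar amounts on their brightest probes. The 2 dimmer probes placed both strains above LPS. The junction probe had signals of 235, 1291 and 581 for LPS, CRL1505 + LPS and CRL1506 + LPS, so it was 7.90-fold higher with CRL1505 (2.98) and 2.63-fold higher with CRL1506 (1.40). The second dim probe had 276, 896 and 536, so it was 4.67-fold (2.22) and 2.07-fold (1.05) higher. All 3 probes put CRL1505 + LPS above CRL1506 + LPS, by 3.51-fold, 3.00-fold and 2.26-fold, but they disagreed on whether *Il15ra* differed between CRL1506 + LPS and LPS. The log2 ratio of CRL1506 + LPS to LPS was higher by 1.51 on the junction probe and by 1.16 on the second dim probe than on the brightest one. The spread of the 3 probes (SD of the log2 ratio to LPS) was 0.64 with CRL1505 and 0.79 with CRL1506. Both were about at the 90th percentile over all genes with several probes, so the size of the *Il15ra* ratio with CRL1505 also depended on the probe.

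**Figure D2:**
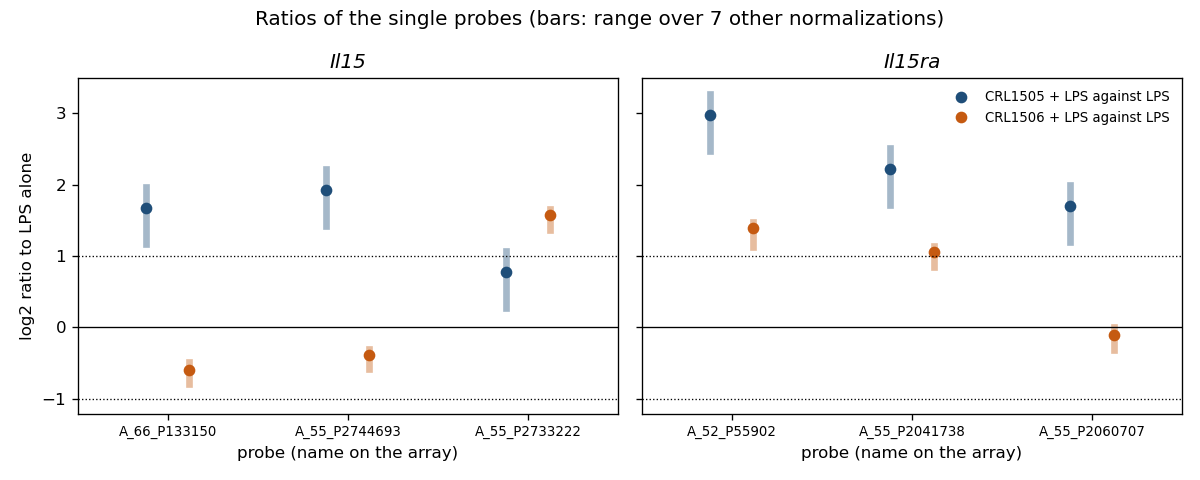
Log2 ratio to LPS alone (y axis) of each probe of *Il15* and *Il15ra* (x axis, by its name on the array), with CRL1505 + LPS in blue and CRL1506 + LPS in orange. Bars run from the lowest to the highest value over 7 other normalizations. The *Il15* probes A_66_P133150 and A_55_P2744693 lie above 0 with CRL1505 and below it with CRL1506, A_55_P2733222 lies above 0 with both, and the *Il15ra* probes lie above 1 with CRL1505.

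*Il7*, a cytokine that keeps lymphocytes alive, was measured close to the limit of detection. The probe used had signals of 65.5 in LPS, 69.4 in CRL1505 + LPS and 46.2 in CRL1506 + LPS, where the lowest signals well above background on these arrays were 33.3, 29.6 and 33.1. The log2 ratio to LPS was 0.61 with CRL1505 (between 0.10 and 1.03 over the other normalizations) and -0.41 with CRL1506 (between -0.68 and -0.11). The value of 0.61 comes mostly from the shift, as the signals in LPS and CRL1505 + LPS were nearly equal. The strains were 2.03-fold apart (1.02, between 0.44 and 1.63). A second probe of *Il7* was well above background on the LPS and CRL1506 + LPS arrays alone, with signals of 36.6 and 41.1, and the remaining probe on none. On this second probe the log2 ratio of CRL1506 + LPS to LPS was 0.26, opposite in sign to the probe used. Its signal in CRL1505 + LPS was 8.21, so CRL1505 + LPS lay below CRL1506 + LPS (a bound of -0.04), also opposite to the probe used. As a mean over probes the log2 ratio between the strains was 0.49.

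*Il2*, the T cell growth factor, was not well above background in LPS or CRL1505 + LPS. Its probe at chr3:37024765-37024824 had signals of 7.41 and 17.6 there and of 80.4 in CRL1506 + LPS. The value in CRL1506 + LPS was at least 2.57-fold higher than in LPS and at least 2.01-fold higher than in CRL1505 + LPS. The bound against LPS ranged from 0.05 to 1.45 on the log2 scale over the other normalizations of this probe. The spot was uneven on the CRL1506 + LPS array, with 4 uneven spots among its 20 neighbours. The other *Il2* probe was not well above background in any condition, with signals of 14.5, 16.7 and 17.7. The *Il2* value thus rests on 1 uneven spot.

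The common gamma chain itself had ratios close to 0. *Il2rg* had signals of 7526 in LPS, 5476 in CRL1505 + LPS and 6619 in CRL1506 + LPS, an order that follows the 75th percentiles of the arrays. Its log2 ratio to LPS was 0.06 with CRL1505 (between -0.44 and 0.36) and -0.09 with CRL1506 (between -0.30 and 0.00). It was measured by 1 probe, at chrX:98459802-98459860. The absence of replicates leaves no interval on these differences beyond the range over normalizations, and CRL1505 + LPS was on either side of LPS within that range.

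Among the private chains, *Il7r* was the one with the highest value in CRL1506 + LPS on a bright probe. IL-7Rα pairs with the common gamma chain to bind IL-7 and with the product of *Crlf2* to bind TSLP. The signal of its probe at chr15:9436822-9436881 was 1791 in LPS, 1017 in CRL1505 + LPS and 3986 in CRL1506 + LPS. Relative to LPS it was 2.37-fold higher with CRL1506 (log2 ratio 1.24, between 1.04 and 1.35), while CRL1505 + LPS was 1.23-fold lower (-0.29, between -0.80 and 0.00). The strains were 2.90-fold apart in the opposite direction to the brightest probe of *Il15*. A second probe of *Il7r* was not well above background in any condition. *Il2ra*, the chain that gives the IL-2 receptor its high affinity, was dim, with signals of 53.3 in LPS, 90.04 in CRL1506 + LPS and, not well above background, 28.1 in CRL1505 + LPS. CRL1506 + LPS was 1.80-fold higher than LPS (0.85, between 0.23 and 0.93). CRL1505 + LPS was at least 1.25-fold lower than LPS and at least 2.25-fold lower than CRL1506 + LPS. Over the other normalizations that gave a bound, that against LPS was between -0.83 and -0.03 on the log2 scale. Its second probe was not well above background in any condition.

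*Il4ra* and *Il21r* were under 2-fold in each comparison, although *Il4ra* passed it between the strains with a shift by the median (log2 ratio 1.04). *Il4ra*, which serves the IL-4 and the IL-13 receptor, had signals of 2147, 2286 and 2116 in the order LPS, CRL1505 + LPS and CRL1506 + LPS, with log2 ratios to LPS of 0.61 (between 0.11 and 0.91) and 0.07 (between -0.13 and 0.15). Its other probe gave 0.85 and -0.06, so after the shift both probes placed CRL1505 + LPS above LPS and CRL1506 + LPS close to it. Both ratios with CRL1505 include the shift between the arrays. The value of 0.61 comes mostly from it, as the *Il4ra* signals in LPS and CRL1505 + LPS were close. *Il21r*, the receptor chain for IL-21, had signals of 177, 160 and 167 and ratios of 0.38 (between -0.12 and 0.68 over the other normalizations) and 0.00, and its other probe gave 0.67 and 0.92. *Il13ra1*, the partner of IL-4Rα, followed the order of the brightest probe of *Il15*. Its signals at chrX:33711118-33711177 were 1638 in LPS, 2235 in CRL1505 + LPS and 870 in CRL1506 + LPS, which was 1.96-fold higher with CRL1505 (0.97, between 0.47 and 1.27) and 1.77-fold lower with CRL1506 (-0.82, between -1.02 and -0.73). The 3.47-fold gap between the strains came from a single probe.

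**Figure D3:**
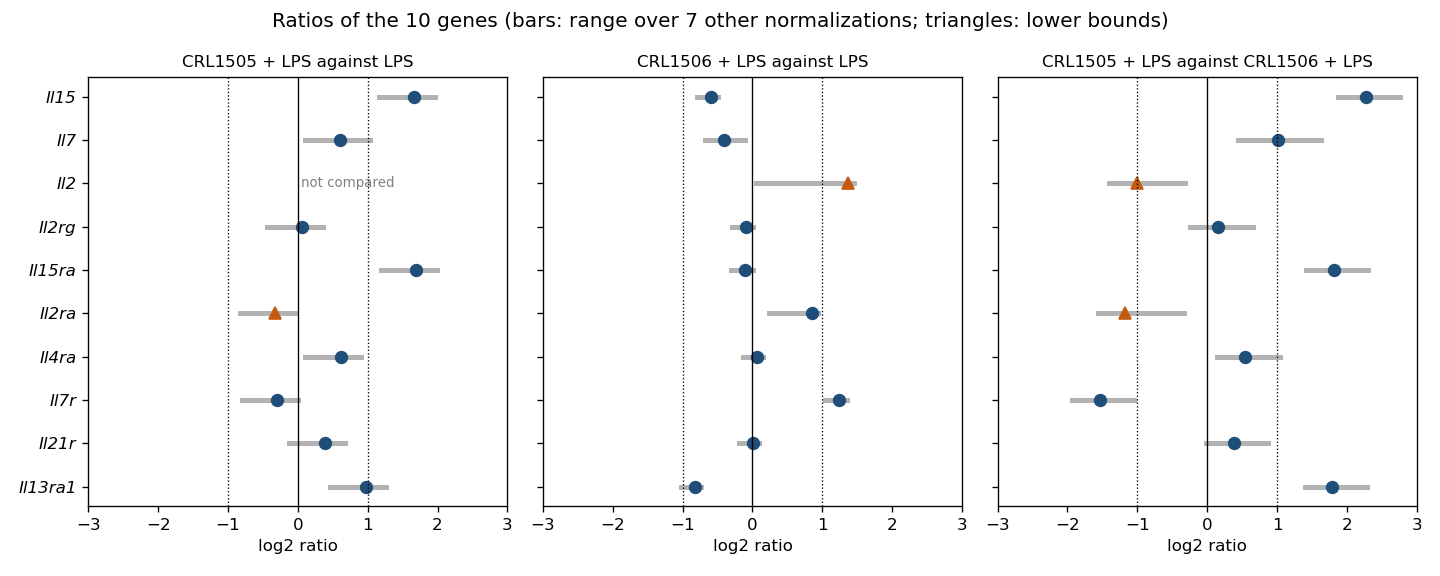
Log2 ratios (x axis) of the 10 genes (y axis) in CRL1505 + LPS against LPS, CRL1506 + LPS against LPS and CRL1505 + LPS against CRL1506 + LPS. Points are the ratios of the probe used, triangles are bounds from arrays on which the probe was not well above background, gray bars span the 7 other normalizations, and dotted lines mark 2-fold. *Il15* and *Il15ra* lie beyond 2-fold with CRL1505 together with their bars, *Il7r* does so with CRL1506, and *Il2* was not compared between CRL1505 + LPS and LPS.

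Ligands of the system other than these were scarcely measured. *Il4*, *Il9*, *Il13* and *Tslp* were not well above background in any condition, and *Il21* was so on the CRL1505 + LPS array alone, with a signal of 42.3 and a value at least 1.83-fold higher than in LPS. *Il2rb*, the signaling chain that IL-15 and IL-2 share, was not well above background in any condition with either of its 2 probes. The signals of its brighter probe were 12.6, 6.21 and 31.6 for LPS, CRL1505 + LPS and CRL1506 + LPS. For *Il9r*, 1 of 2 probes was well above background and on the LPS array alone. *Crlf2* and *Il13ra2*, the decoy receptor for IL-13, had log2 ratios of 0.54 and 0.68 with CRL1505 and of 0.00 and 0.36 with CRL1506. Of the 4 other receptor chains only these 2 could be compared, and 0 were at least 2-fold apart.

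Of 8 Janus kinase and STAT genes, 3 were at least 2-fold higher in CRL1505 + LPS than in LPS and 0 were lower, with a median log2 ratio of 0.41. Over all genes compared, 9.93% were higher and 8.41% lower with CRL1505 (median 0.01), and 5.67% and 3.53% with CRL1506 (median -0.06). The 3 higher genes were *Stat3* (3.27-fold), *Jak2* (2.88-fold) and *Jak3* (2.01-fold), of which *Jak3* reached 2-fold under just 2 of 7 other normalizations. On the LPS array 13 of the 20 spots nearest to the *Stat5a* probe were uneven, as were 8 near *Stat5b* on the array of CRL1506 + LPS. In CRL1506 + LPS 0 of 8 were past 2-fold and the median was -0.10. *Jak3*, the kinase bound to the common gamma chain, had signals of 453 in LPS, 633 in CRL1505 + LPS and 292 in CRL1506 + LPS. It was 2.93-fold higher in CRL1505 + LPS than in CRL1506 + LPS, which is the order seen for *Il15* and *Il13ra1*. *Stat3* was the other gene of this list past 2-fold between the strains (2.21-fold), though in only 2 of the 7 other normalizations. *Jak1*, which sits on the private chains, had ratios of 0.33 and 0.01 to LPS for CRL1505 and CRL1506. *Stat5a* had 0.06 and -0.22, *Stat5b* -0.02 and 0.14, and *Stat6*, the main transducer of IL-4 and IL-13, -0.43 and -0.64. The STATs through which IL-15, IL-2, IL-7, IL-4 and IL-13 mainly signal were thus under 2-fold with both strains.

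Feedback inhibitors of the pathway were at least 2-fold higher in CRL1505 + LPS than in LPS for 3 of 8 genes and lower for 0. Over all genes compared, 9.93% were higher and 8.41% lower. The 3 inhibitors were *Socs1* and *Socs3*, past 2-fold in 7 and 6 of the 7 other normalizations, and *Socs2*, a bound past it in 3. In CRL1506 + LPS, *Socs2* was higher, at least 6.08-fold, and *Cish* was 2.52-fold lower. Both encode inhibitors of STAT5 signaling and are also STAT5 target genes. *Cish* had signals of 1171 in LPS, 758 in CRL1505 + LPS and 436 in CRL1506 + LPS and a ratio of -0.10 with CRL1505, between -0.61 and 0.19. *Socs2* had signals of 33.9, 47.7 and 194, and it was not well above background in LPS. Its spot was uneven in CRL1506 + LPS, and its bound against LPS was between 0.88 and 2.69 on the log2 scale over the other normalizations. Between the strains *Socs2* was 3.00-fold higher in CRL1506 + LPS and *Cish* 2.35-fold higher in CRL1505 + LPS. These 2 STAT5 targets therefore differed between the strains in opposite directions, with log2 ratios between -1.99 and -0.32 for *Socs2* and between 0.83 and 1.73 for *Cish* over the other normalizations.

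Of all 9 STAT5 target genes, 3 were at least 2-fold higher with CRL1505, with a median of -0.10, and 1 was higher and 1 lower with CRL1506, with a median of -0.20. Over all genes compared, 9.93% were higher with CRL1505, and 5.67% were higher and 3.53% lower with CRL1506. Apart from *Socs2* and *Cish*, the targets past 2-fold were *Osm*, the cytokine oncostatin M (4.05-fold with CRL1505), and *Pim1*, a survival kinase (2.40-fold, and past 2-fold in 6 of the 7 other normalizations). Both were also higher in CRL1505 + LPS than in CRL1506 + LPS, by 3.08-fold and 2.78-fold. The survival genes *Bcl2*, *Bcl2l1* and *Mcl1* had ratios of -0.15, -0.10 and 0.13 with CRL1505 and of -0.20, -0.69 and -0.15 with CRL1506.

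Type I interferon is a known inducer of *Il15* and *Il15ra* in macrophages, and 9 genes of that route were examined. In CRL1505 + LPS 3 were at least 2-fold higher than in LPS and 0 lower, with a median of 0.46, and in CRL1506 + LPS 2 were higher and 0 lower, with a median of 0.00. Over all genes compared, 9.93% were higher and 8.41% lower with CRL1505, and 5.67% and 3.53% with CRL1506. *Ifnb1*, interferon-β, had signals of 2275 in LPS, 17480 in CRL1505 + LPS and 10623 in CRL1506 + LPS. It was 11.04-fold higher than LPS alone with CRL1505 and 4.97-fold higher with CRL1506, so that it was higher than LPS with both strains. *Irf7* (3.73-fold) and *Stat2* (2.96-fold) were the others past 2-fold with CRL1505, and their log2 ratios with CRL1506 were 0.87 and 0.53. *Ifnar1*, a chain of the interferon receptor, was the other gene past 2-fold with CRL1506 (2.59-fold). *Irf1*, the factor that is needed for *Il15* induction by interferon, had ratios of 0.14 and -0.51. Between the strains *Ifnb1* (2.22-fold), *Stat2* (2.05-fold) and *Irf7* (2.04-fold) were higher in CRL1505 + LPS, but past 2-fold in only 2, 1 and 1 of the 7 other normalizations. *Ifnar1* went the other way. It was 1.88-fold lower in CRL1505 + LPS than in CRL1506 + LPS (log2 ratio -0.91), and past 2-fold in 5 of the 7.

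Genes that IL-4 and IL-13 induce in macrophages were mostly dim, and 10 of 17 could be compared in CRL1505 + LPS and 9 in CRL1506 + LPS. With CRL1505 3 were at least 2-fold higher and 2 lower, with a median of 0.11, where 9.93% of all genes compared were higher and 8.41% lower. *Chil3*, a chitinase-like protein, was 2.32-fold and *Klf4* 2.15-fold higher (past 2-fold in 6 and 5 of the 7 other normalizations), *Retnla* was well above background with CRL1505 alone, on an uneven spot, and *Ccl24* and *Pparg* were lower as bounds. With CRL1506 0 were higher and 2 lower, with a median of -0.68, where 5.67% of all genes compared were higher and 3.53% lower. The 2 lower genes of the list were *Ccl24*, an eosinophil chemokine (14.2-fold lower), and *Ccl17* (2.27-fold lower, and past 2-fold in 5 of the 7 other normalizations). The signal of *Ccl24* was 795 in LPS and 52.7 in CRL1506 + LPS, and in CRL1505 + LPS it was 23.9 and below that limit, so it was lower with either strain. *Chil3* was 3.84-fold higher in CRL1505 + LPS than in CRL1506 + LPS. *Arg1*, *Ccl22* and *Irf4* were not well above background in any condition. In RNA of whole cultures, fewer cells that express a gene and less RNA per cell cannot be told apart.

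**Figure D4:**
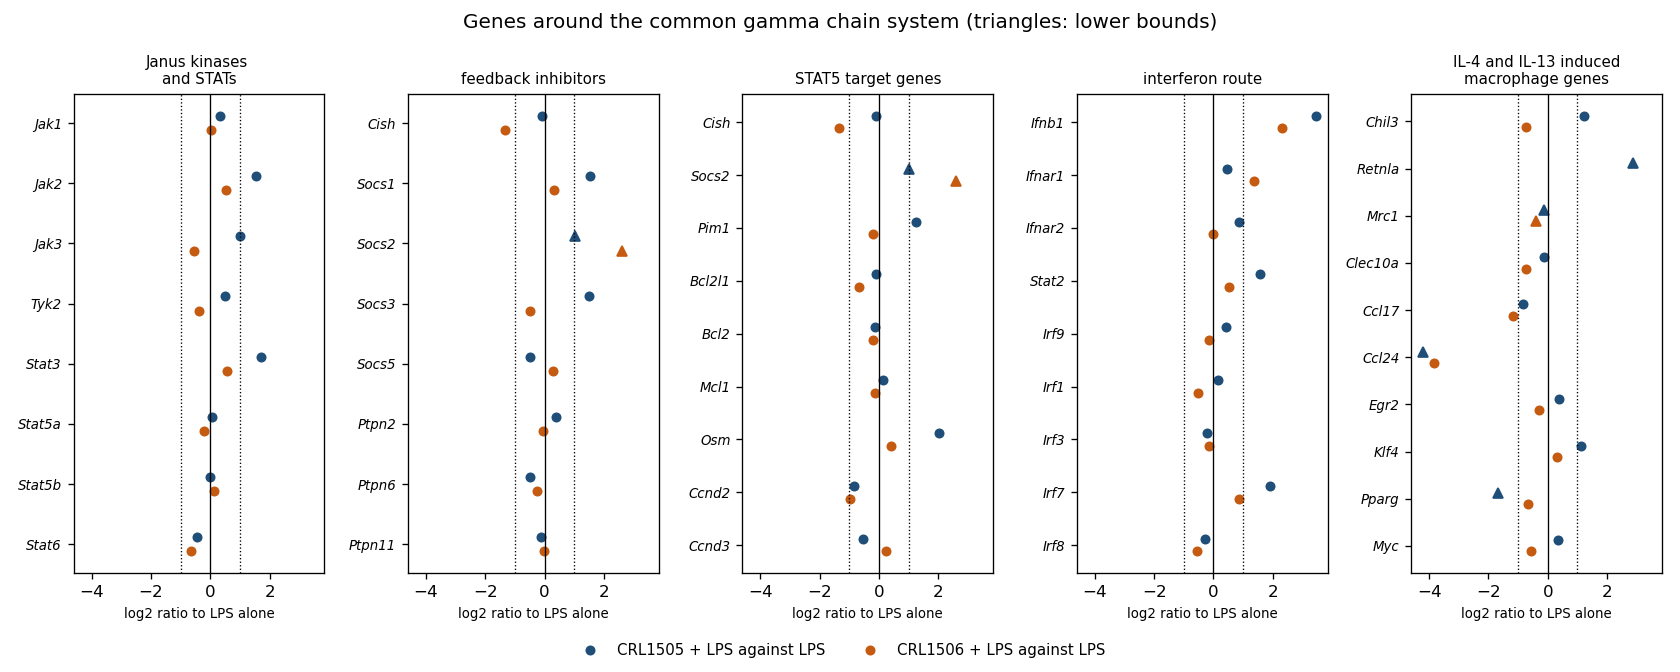
Log2 ratios to LPS alone (x axis) of the genes compared in the 5 lists (y axis), with CRL1505 + LPS in blue and CRL1506 + LPS in orange. Triangles are bounds and dotted lines mark 2-fold. The ratios of *Ifnb1* lie above 2 with both strains, and those of *Stat5a*, *Stat5b* and *Stat6* lie between -1 and 1.

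The genes whose pair of ratios to LPS was most like that of *Il15* were sought among 13122 genes well above background on all arrays, by the Euclidean distance between the pairs of log2 ratios. They were *Psd3*, *Egfl8*, *Gm33301*, *Mgat5b* and *AA467197*, at distances from 0.083 to 0.12, and 10 genes lay within 0.2. For *Il15ra* they were *Hdc*, which makes histamine, *Rdm1* and *Pcdh7*. For *Il7r* they were *Rep15*, *Gm14393* and *A930013F10Rik*, for *Il13ra1* *Mbd1*, *Parp8* and *Olfr187*, and for *Il7* *Junb*, *Hoxb8* and *Kdm4c*. For *Il15ra*, *Il7r* and *Il13ra1* 16, 16 and 18 genes lay within 0.2, and for *Il7* 209 did.

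Promoter sequence was at hand for 8 of the 10 genes, in 9 windows from 250 bases before to 50 bases after the start (RefSeq, GRCm38.p6). The table had no window for *Il15* and *Il7*, so their promoters were not searched. An interferon-stimulated response element (GAAA, any 2 bases and GAAA, both strands) was found in 0 of these 9 windows and in 3.44% of 32851 windows of all genes. The kappaB motif (GGG, any 4 bases and TCC, both strands) was in 3 windows, of *Il2ra*, *Il15ra* and *Il4ra*, and in 19.2% of all. The gamma-activated site at which STATs bind (TTCNNNGAA, both strands) was in 1 window, of *Il7r*, and in 8.30% of all. The 250 bases before the *Il7r* start, chr15:9529877-9530126 on the minus strand, are given because *Il7r* was the gene with a bright probe that was higher with CRL1506, and the capitals mark the site 142 bases before the start.
Il7r promoter: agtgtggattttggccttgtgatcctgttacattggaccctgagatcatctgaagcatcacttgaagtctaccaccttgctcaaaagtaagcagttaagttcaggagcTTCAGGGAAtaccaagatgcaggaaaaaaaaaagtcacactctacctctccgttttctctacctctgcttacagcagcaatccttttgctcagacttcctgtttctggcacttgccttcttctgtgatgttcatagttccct
A match is a string of letters, and binding was not measured here.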

How the data were processed

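RNA of RAW macrophages was hybridised in 1 colour to a SurePrint G3 Mouse GE microarray, with 1 array for each of LPS, CRL1505 + LPS and CRL1506 + LPS. The authors deposited the Feature Extraction output of each array (version 12.0.3.1 per the file headers), in which the processed signal is an intensity with background and spatial trends removed and no normalization between arrays. They also deposited log2 values of all spots, normalized between arrays by a method not given in the sources used here (median 6.77 on each array). Flags for spots well above background, saturated or outlying are coded 0 or 1 in the deposited files.

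Arrays were brought to a common scale by subtracting their 75th percentile from the log2 processed signal. Outlier spots were left out (467, 241 and 274 in the order above, 0 of them among the 21 probes), no gene spot was saturated, and repeated spots were averaged. A gene was represented by its brightest probe. A ratio with 1 side not well above background is a bound, taken against the higher of that signal and the lowest signal well above background on the array. A gene was counted when its ratio reached 2-fold. The t-test of the study's methods could not be run without replicates.

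Alternatives were a shift by the median, quantile normalization, cyclic loess, a 75th percentile taken over the probes that all arrays detected, spike-in scaling, normexp background correction with an offset of 50, the deposited log2 table, other filters on dim and uneven spots, the mean over probes and a 1.5-fold threshold. Leaving out spots among uneven ones was added after the data were seen.

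The 10 genes, the gene lists and the rule for named genes were chosen with earlier results of these data known. Named were all 10 genes, list genes at least 2-fold apart with both arrays well above background (at most 4 for each list and comparison), *Jak1*, *Jak3*, *Stat5a*, *Stat5b*, *Stat6*, *Il2rb* and *Cish*, and the genes with the nearest pairs of ratios. Other genes named, such as *Retnla* and *Pparg*, were chosen after their values were seen. An item of the lists is not reported here. Positions of probes refer to mm9, as in the files, and no mm9 annotation was used here. Calculations were made in R 4.3.3 with limma 3.58.1 and in Python 3.11.15 with NumPy 2.4.6 and pandas 2.3.3. The procedure was tested on simulated data.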

Additional observations from a re-analysis of the deposited data

Results flagged for a closer look

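For 7 of the 9 genes with a ratio to LPS for both strains, the strains lay on opposite sides of LPS alone. For 5 of these 7, both ratios were larger than the median spread between probes of a gene (0.23 for CRL1505 and 0.21 for CRL1506). Both strains were set against the same LPS array, and the share of such genes among all genes was not computed. The count therefore does not show that these genes differ from others. Each strain had 1 array, and the difference was not tested. The gap between CRL1505 + LPS and CRL1506 + LPS on the log2 scale was 2.27 for *Il15* (1.67 against -0.60), 1.79 for *Il13ra1* (0.97 against -0.82), 1.02 for *Il7* (0.61 against -0.41), -1.54 for *Il7r* (-0.29 against 1.24) and -1.17 for *Il2ra* (-0.32, a bound, against 0.85). For *Il15ra* (1.70 against -0.11) and *Il2rg* (0.06 against -0.09) the ratio on at least 1 side was within that spread. For *Il7r* the side on which CRL1505 + LPS lay depended on the normalization, and for *Il15* the third probe placed both strains above LPS. For *Il7* the second probe placed CRL1506 + LPS above LPS (0.26) and above CRL1505 + LPS, and the value of 0.61 with CRL1505 comes mostly from the shift.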

How the results depend on the processing

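Among 335 recomputed ratios of single genes, 69 moved by more than the spread between probes and 266 did not. The sign changed in 24, all of ratios under 2-fold, in 6 genes (*Il15*, *Il15ra*, *Il2rg*, *Il4ra*, *Il7r* and *Il21r*), and in 0 of those past 2-fold. *Il21r* between the strains went from 0.38 to -0.25 without spots among uneven ones. The number of genes at least 2-fold apart was 2 for CRL1505 + LPS against LPS. It became 3 with a shift by the median, with cyclic loess and without a filter on dim probes, and 5 at a threshold of 1.5-fold. For CRL1506 + LPS against LPS it was 2, and it became 1 with normexp, with the deposited log2 table, without uneven spots, without uneven spots and their surroundings, and with probes restricted to those that all arrays detected, and 5 at 1.5-fold. With a shift by the median it was 3, as *Il13ra1* was then past 2-fold lower (log2 ratio -1.02). Between the strains it was 7, and no setting gave more. It became 4 with normexp and with the deposited log2 table. It became 5 with quantile normalization, with cyclic loess and with probes restricted to those that all arrays detected. It became 6 with a shift by the median, with a percentile over probes that all arrays detected and with spike-in scaling. The mean over probes and leaving out uneven spots, with or without their surroundings, also gave 6. The number lower in CRL1505 + LPS fell from 3 to 1 in several settings, such as quantile normalization. With the mean over probes, *Il15* in CRL1506 + LPS against LPS was 0.20 in place of -0.60 and *Il15ra* was 0.78 in place of -0.11, and the cause was not tested. The dimmest genes, *Il7*, *Il2* and *Il2ra*, are limited by their signal over background. No paired analysis was possible because each group has 1 array and no test was made.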
